A study of Rattus norvegicus with 10 samples.

Results

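The contralateral tibia is the untreated left shin bone of a rat whose right tibia was mechanically treated, and it is the bone against which each treated tibia is set. The contralateral tibiae of loaded rats were compared here with those of sham-loaded rats, that is, 10 of the 20 labelled RNA samples on 10 arrays with a pair of dyes each. Members were chosen by the labels alone: the channel labelled as contralateral control on each array, 5 from LOAD arrays and 5 from SHAM arrays. All rats were female Wistar rats of 12 weeks, and all were treated once under isoflurane anesthesia and killed 6 hours later. In the LOAD group the right tibia was bent between 4 pads for 300 cycles at 2 Hz with a peak force setting of 60 N. In the SHAM group opposed pads squeezed the right tibia without bending it. The left tibia of both groups received neither, and the study compared these bones to see whether the controls themselves differed. The tissue was the tibial shaft after removal of both ends, periosteum and marrow. Each array held 1 treated and 1 control tibia of a rat, and the dyes were swapped between arrays, with 3 controls in Cy5 and 2 in Cy3 in each group.

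Cortical bone of the shaft holds osteocytes, the cells buried in mineral that sense strain, along with osteoblasts and lining cells on its surfaces and the cells of its vessels. Osteocytes control mineral and phosphate through secreted proteins such as Mepe and through the membrane endopeptidase Phex. Loading of a limb can reach other bones through circulating hormones, nerves or altered use of the other leg, and a contralateral bone is a fair control only as far as such effects are absent or equal in the groups compared.

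Some limits of the arrays bear on every value below. The control channels of LOAD 2 and LOAD 4 stood apart: their correlation with other controls over genes was 0.888 to 0.938, against 0.951 to 0.980 among the other 8. The median SD over genes was 0.37 in the LOAD controls, 0.23 in the SHAM controls and 0.25 in the LOAD controls without LOAD 2 and LOAD 4 (log2 units). The scanner output carries a typed tibia number for each channel. On 8 arrays the control number follows the treated one, as for 2 legs of 1 rat, but LOAD 4 pairs treated tibia 3 with control tibia 26 and SHAM 4 pairs treated tibia 25 with control tibia 4. By these numbers the controls of the arrays numbered 4 would belong to each other's group, which goes against the labels. Groups follow the labels throughout, and results are also given without both arrays and with these 2 controls exchanged. For SHAM 1, 1 label field reads LOAD, against its title, description and source, which were followed. Defining markers of bone were measured with signal in all 10 controls: Mepe, osteopontin (Spp1), bone sialoprotein (Ibsp) and osteonectin (Sparc). So were Ckm of muscle, Alas2 of red cell precursors and Cd53 of leukocytes.

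No gene differed between the contralateral tibiae of LOAD and SHAM at a false discovery rate of 20%, the threshold of the study. In limma, with the dye of the control as a term, 0 of 4472 genes met it (0%; lowest adjusted p = 0.777), and 247 (5.52%) had an unadjusted p under 0.05, where chance gives 223.6. Of these, 97 (2.17%) were higher and 150 (3.35%) lower in LOAD. The single channel analysis of all 20 channels, the kind of model the study used, gives the same differences with another error. There too 0 genes passed (0%; lowest adjusted p = 0.430), and 234 (5.23%) had an unadjusted p under 0.05 (2.01% higher, 3.22% lower). The study itself reported Phex, c-Ki-ras and the amino acid transporter Slc38a2 as down-regulated between these controls at the same threshold. It filtered spots more severely, also by hand, and tested fewer of them. It also kept duplicate spots as separate values, while the values used here have duplicates combined. Why the counts differ was not tested. In the first fit the share was 5.25% among genes with signal in all 10 controls and 5.63% among genes with a symbol, where a probability of signal of at least 0.5 counts as signal. Over all 4472 genes the median difference, LOAD minus SHAM, was 0.010 on the log2 scale, the median size of a difference was 0.17 and the median standard error 0.20. Of all genes, 51.5% lay above and 48.5% below 0. The 5 LOAD and 5 SHAM values did not overlap in 44 genes (0.984%), 14 higher (0.313%) and 30 lower (0.671%) in LOAD. These shares are the background for the genes and lists below. With the controls of the arrays numbered 4 exchanged, 90 genes had an unadjusted p under 0.05, and without both arrays 133. Leaving out 1 array at a time gave 158 (without SHAM 3) to 383 (without LOAD 3) such genes, and 0 past the false discovery rate in each case.

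The split into higher and lower depended on how the arrays were brought to a common scale and on which arrays entered. Of the genes with an unadjusted p under 0.05, 39.3% were higher in LOAD, against 75.6% when each control channel was only centred on its median, 6.40% without any normalization, and 56.2% without LOAD 2 and LOAD 4. Without normalization the median of all genes moved to -0.36, and 28 genes were then past the 20% threshold, 8 higher and 20 lower. No direction over the genes as a whole is therefore read from these arrays.

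Phex, a membrane endopeptidase of osteoblasts and osteocytes whose loss causes renal phosphate wasting and soft bone, had the lowest p of all genes with a name. Its normalized log2 intensity was 8.53, 8.87, 8.83, 8.96 and 9.04 in the controls of LOAD 1 to 5, and 9.28, 9.58, 9.90, 9.82 and 9.81 in those of SHAM 1 to 5. Every LOAD control lay below every SHAM control. The means were 8.85 ± 0.19 (SD, n = 5) and 9.68 ± 0.25 (SD, n = 5), a difference of -0.83 (standard error 0.17; 95% interval -1.21 to -0.46), or a 1.78-fold higher level in SHAM. In limma the unadjusted p was 0.000409 and the adjusted p 0.777, so that Phex did not pass the test. The exact 2-sided permutation p for 5 against 5 was 0.00794 (n = 5 and 5), the smallest that this design allows. Phex is also among the genes that the study picked from these arrays, so its rank is not independent evidence.

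The same order of Phex was seen in the treated legs of these rats. In the treated tibiae Phex was at 8.85, 9.16, 8.95, 9.41 and 8.52 in LOAD 1 to 5, and at 9.58, 9.55, 10.25, 9.57 and 9.49 in SHAM 1 to 5. Here too the groups did not overlap, with a difference of -0.71 (standard error 0.20). The treated and control tibiae of a rat share an array and its spots, and are thus not independent. The log2 ratio of treated to control tibia differed between LOAD and SHAM by 0.12 (standard error 0.20; limma, adjusted p = 0.998). Within the 4 scan batches the control difference was -0.73 in the batch with 2 arrays of each group, and -1.08, -0.87 and -0.78 in those with 1 of each. In the last 2 of these, group and dye of the control went together. Without LOAD 2 and LOAD 4 Phex was at -0.86. Without any 1 array it lay between -0.93 and -0.76, and with the controls of the arrays numbered 4 exchanged it was -0.64, with an adjusted p of 1.00 in limma and overlapping groups.

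Other genes of osteocytes and of mineral had no such difference. Mepe, a matrix glycoprotein of osteocytes that restrains mineralization, was at 9.83, 12.30, 11.07, 10.56 and 12.13 in the LOAD controls and at 10.88, 11.90, 12.38, 11.62 and 11.09 in the SHAM controls. The groups overlapped almost throughout, and the difference of -0.40 (standard error 0.36; 95% interval -1.19 to 0.40; limma, adjusted p = 0.808) was smaller than their spread. In the study's RT-PCR, in more rats, mean Mepe was also lower in LOAD than in SHAM controls with both primer sets. The study gave no test of that control difference. In the treated tibiae the Mepe difference was 0.34 (standard error 0.41), so that the higher LOAD ratio of Mepe, by 0.73 (standard error 0.32; limma, adjusted p = 0.998), was the treated difference less the control difference, neither of which had an unadjusted p under 0.05. All 6 measured osteocyte genes lay below 0 (median -0.19; all genes 0.010), among them Cd44, a hyaluronan receptor, at -0.27 and Pdpn, which shapes osteocyte processes, at -0.12. Of the 6, 1 (Phex) had an unadjusted p under 0.05 and 0 passed the test. The osteocyte median was -0.46 without LOAD 2 and LOAD 4, and without any 1 array it lay between -0.45 (without LOAD 2) and -0.064 (without SHAM 3), where Mepe was at -0.066. When SHAM 1 was counted as LOAD, 2 of the 6 lay above 0. Of the 11 phosphate and mineralization genes 6 were higher and 5 lower, with a median of 0.030: the phosphate transporter Slc20a2 at -0.25, the vitamin D receptor Vdr at 0.28, the parathyroid hormone receptor Pth1r at 0.17 and Mgp, which inhibits calcification, at 0.18.

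Genes of the bone matrix lay on both sides, 4 of 8 higher and 4 lower, with a median of -0.032. Spp1 was at 11.23, 13.59, 11.61, 11.95 and 12.54 in the LOAD controls and between 11.92 and 12.68 in the SHAM controls, a difference of 0.030 (standard error 0.34). The SD was 0.92 in LOAD against 0.31 in SHAM, with LOAD 2 farthest from the others. Ibsp, which binds mineral and cells, differed by -0.14 (standard error 0.25) and Sparc by -0.17. Biglycan (Bgn), a small proteoglycan of the matrix, was the member with an unadjusted p under 0.05: it was at 8.58, 7.24, 8.20, 7.82 and 8.30 in LOAD and at 8.01, 8.36, 9.18, 9.18 and 8.97 in SHAM. Its groups overlapped, with a difference of -0.71 (standard error 0.30), and the difference was -0.11 with the controls of the arrays numbered 4 exchanged. Osteoclast genes gave no difference past the test either (3 of 4 higher, median 0.13). Acp5, the acid phosphatase of osteoclasts, was at 0.060 (standard error 0.26) and Tnfrsf11b, the decoy receptor that restrains them, at 0.25 (standard error 0.16).

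**Figure D1:**
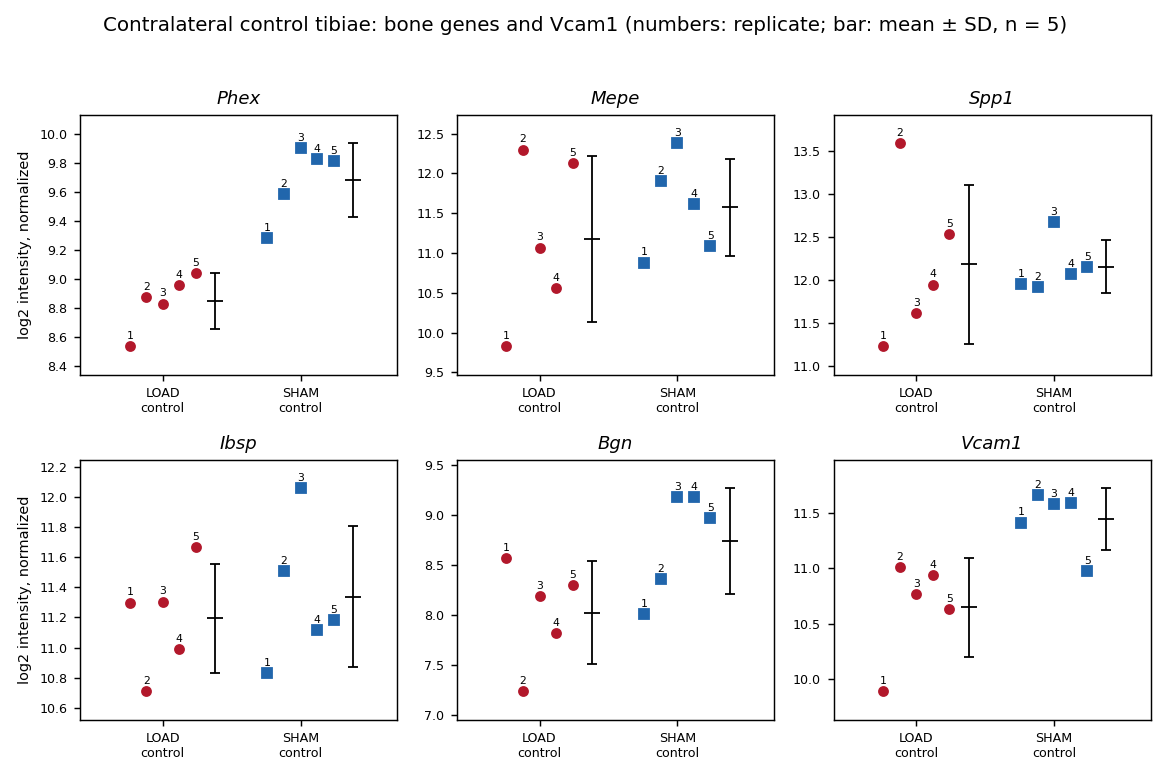
Normalized log2 intensity (vertical axis) of 5 bone genes and Vcam1 in the contralateral control tibiae of LOAD (circles) and SHAM (squares), with replicate numbers and mean ± SD (n = 5). The LOAD points of Phex, at 8.53 to 9.04, all lie below the SHAM points, at 9.28 to 9.90, while the points of Mepe, Spp1, Ibsp, Bgn and Vcam1 overlap.

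Skeletal muscle transcripts had higher levels in some contralateral tibiae than in others, and more of these were in LOAD. Of 21 muscle genes measured, 17 were higher and 4 lower in LOAD, with a median of 0.31 (all genes 0.010), 4 with an unadjusted p under 0.05 and 0 past the test. The creatine kinase of muscle, Ckm, which restores ATP in contracting fibers, was at 9.05, 8.60, 11.16, 11.34 and 10.34 in the LOAD controls and at 9.80, 8.76, 8.51, 8.63 and 9.17 in the SHAM controls. LOAD 3, 4 and 5 and SHAM 1 were thus high and the other 6 low, so that the groups overlapped. The Ckm difference was 1.12 (standard error 0.47; 95% interval 0.10 to 2.15; limma, unadjusted p = 0.0344, adjusted p = 0.777; exact permutation p = 0.119, n = 5 and 5). Troponin-C, the calcium sensor of the thin filament, was at 6.57, 7.52, 10.18, 10.93 and 9.39 in LOAD and at 8.68, 7.52, 6.44, 6.58 and 6.72 in SHAM. It carried signal in 4 of the LOAD and 2 of the SHAM controls, and its low values lie near the limit of detection. Myl11, a light chain of fast myosin, was at 6.68, 6.90, 10.06, 11.14 and 9.11 in LOAD and at 8.95, 7.60, 6.72, 6.92 and 6.84 in SHAM. Myl11 carried signal in 3 of the LOAD and 4 of the SHAM controls, so that its lowest values also lie near that limit. The same 4 tibiae were the highest for both genes.

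These 4 controls, LOAD 3, LOAD 4, LOAD 5 and SHAM 1, were the 4 highest in 5 of 21 muscle genes (23.8%) and in 23 of 4472 genes (0.514%), a grouping seen only after the values were known. Ckm, troponin-C and Myl11, in which these 4 controls were first described, are counted in the 23, and Ckm and Myl11 also in the 5. The shares are thus partly fixed by that choice. Besides Ckm and Myl11 the 5 were Cox6a2, the muscle subunit of cytochrome oxidase, the calpain Capn3 and the fast troponin Tnni2. Among named genes that are not on the muscle list, these 4 controls were also the highest in Maoa, Fgb, Klc-C, Svs4, Il2ra and Septin3. So they were in troponin-C, whose accession has no symbol in the list. The rest of the 23 have no gene name. Maoa, which breaks down monoamines, was at 7.63, 8.84, 11.49, 11.99 and 10.47 in LOAD and at 10.03, 8.53, 8.04, 7.94 and 7.27 in SHAM, and its range of 4.72 between controls was far above the median range of 1.06. The fibrinogen chain gene Fgb, a product of liver, was at 9.96, 10.22, 11.72, 11.93 and 11.12 in LOAD and at 10.60, 10.01, 9.62, 9.60 and 9.67 in SHAM. Fgb, the kinesin light chain Klc-C and the seminal vesicle gene Svs4 differed by 1.09, 0.98 and 0.97, each with a standard error of 0.37 to 0.42, and by 0.35, 0.20 and 0.17 with the controls of the arrays numbered 4 exchanged. Fgb and Klc-C are among the genes that the study picked from these arrays for their ratios in LOAD. By RT-PCR the study could not detect the Fgb transcript in LOAD, SHAM or control tibiae with either primer set. The Fgb values here can therefore not be read as levels of that transcript. The spotted oligonucleotides can bind transcripts other than the one they are named for, and whether muscle RNA gave these signals was not tested.

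In the treated tibiae the pattern of muscle was another. Ckm was at 8.99, 8.37, 9.06, 8.78 and 8.38 in the treated LOAD tibiae and at 8.85, 10.33, 8.87, 8.39 and 9.54 in the treated SHAM tibiae. High levels of Ckm, Myl11, troponin-C, Maoa and Fgb together were thus found in the treated tibia of SHAM 2 and in 0 treated LOAD tibiae. The treated Ckm difference was -0.48 (standard error 0.33), and the median over the 21 muscle genes was 0.017. The difference in the log2 ratio of treated to control tibia, LOAD minus SHAM, was -1.60 for Ckm (standard error 0.55; limma, adjusted p = 0.998) and is the treated difference of -0.48 less the control difference of 1.12. For Maoa it was -2.22, from -0.50 in treated and 1.72 in control tibiae, and for troponin-C -2.17, from -0.44 and 1.73. In these 3 genes, which the study picked from these arrays for their ratios in LOAD, the control difference was larger in size than the treated one. With the controls of the arrays numbered 4 exchanged, the control differences were 0.41 for Ckm, 0.34 for Maoa and 0.23 for troponin-C, smaller in size than the treated ones.

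The muscle difference rests on few rats. Within the scan batches the Ckm difference was -0.46 in the batch of LOAD 1, LOAD 2, SHAM 1 and SHAM 2, and 2.64, 2.72 and 1.17 in the others. With the controls of the arrays numbered 4 exchanged it was 0.41 (limma, unadjusted p = 0.526), the median of the muscle list was 0.13 and 15 of 21 were higher. Without both arrays numbered 4 Ckm was at 0.86 and the list median at 0.28, without LOAD 2 and LOAD 4 the list median was 0.30 with 14 of 21 higher, and without normalization the list median was -0.057 with the median of all genes at -0.36. The study also measured control tibiae by RT-PCR, in more rats. There the direction of the mean control difference between LOAD and SHAM depended on the primer set for Ckm and for troponin-C. For Maoa and Klc-C the mean was lower in LOAD controls with both primer sets, opposite to the arrays. The study gave no test of these control differences. In bulk tissue, more muscle fibers and more RNA per fiber cannot be told apart.

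**Figure D2:**
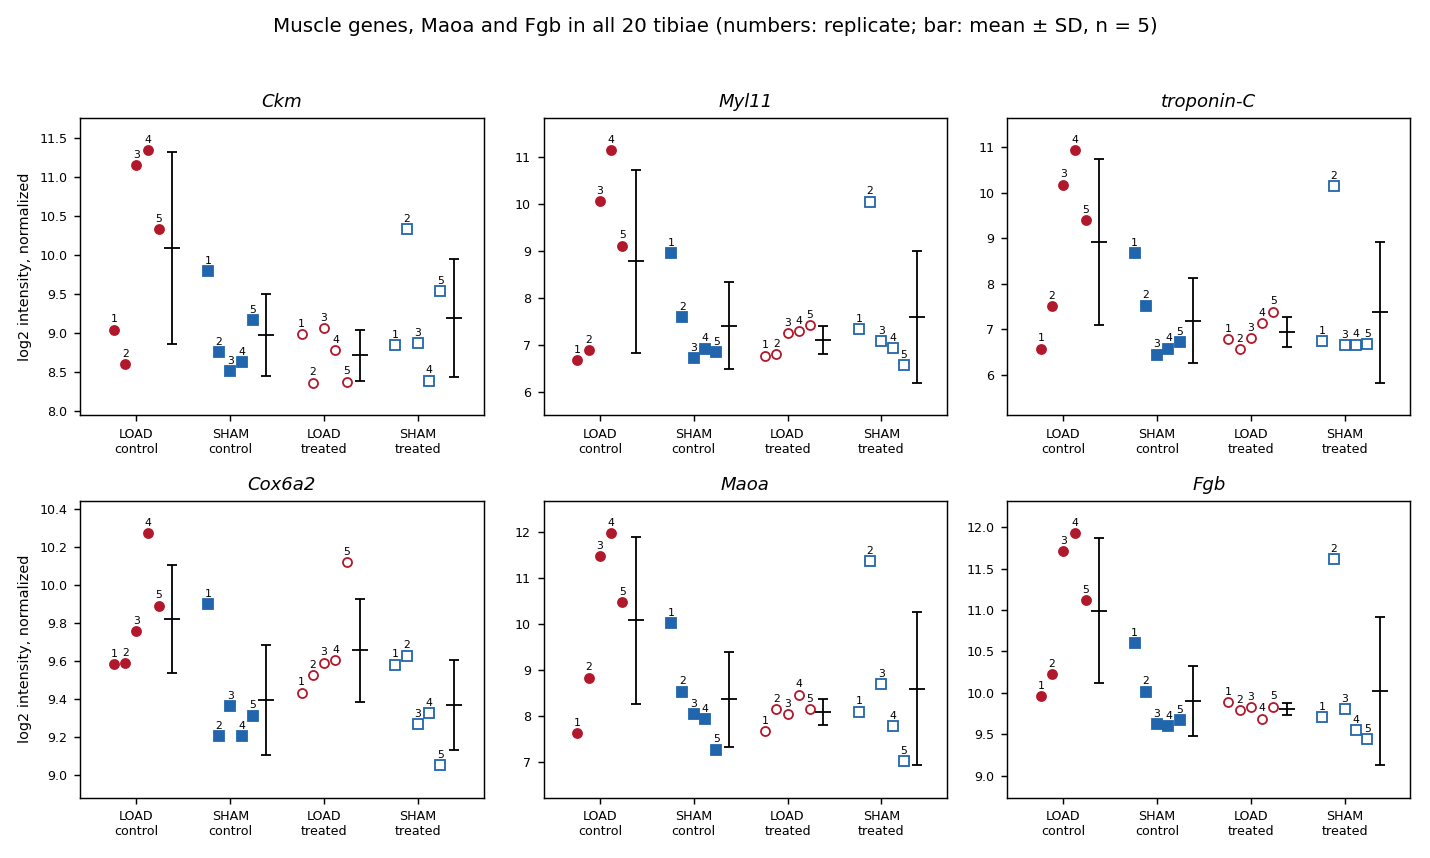
Normalized log2 intensity (vertical axis) of 4 muscle genes, Maoa and Fgb in control tibiae (filled) and treated tibiae (open) of LOAD (circles) and SHAM (squares), with replicate numbers and mean ± SD (n = 5). Among the controls LOAD 3, 4 and 5 and SHAM 1 are high in each panel, with Ckm at 9.80 to 11.34, and among the treated tibiae SHAM 2 has the highest level in each panel but that of Cox6a2.

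Smaller differences with less spread between rats were seen in other muscle and mitochondrial genes. Cox8b, the muscle form of a cytochrome oxidase subunit, was at 9.54, 10.02, 9.66, 9.98 and 10.11 in the LOAD controls and at 9.56, 9.25, 9.01, 9.46 and 9.44 in the SHAM controls, where 4 LOAD values lay above every SHAM value. Its difference was 0.52 (standard error 0.17; limma, unadjusted p = 0.00975, adjusted p = 0.777). Tnni1, the troponin inhibitor of slow fibers, differed by 0.41 (standard error 0.15) and Cox6a2 by 0.43 (standard error 0.19). Without normalization Tnni1 was at -0.023, with all genes shifted by -0.36. Of 10 genes of oxidative phosphorylation 6 were higher, with a median of 0.20, and the 2 with an unadjusted p under 0.05 were the muscle forms Cox8b and Cox6a2. The median of the list was 0.058 without LOAD 4. With the controls of the arrays numbered 4 exchanged, Cox8b was at 0.29, Tnni1 at 0.19 and Cox6a2 at 0.10.

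The named genes with lower levels in LOAD included some of adhesion, lysosomes and leukocytes, a grouping made after their values were seen. Vcam1, the adhesion molecule that holds leukocytes and blood-forming cells to endothelium and stroma, was at 9.89, 11.01, 10.76, 10.94 and 10.63 in the LOAD controls and at 11.41, 11.66, 11.58, 11.59 and 10.97 in the SHAM controls. SHAM 5 alone reached into the LOAD range. The Vcam1 difference was -0.80 (standard error 0.22; limma, unadjusted p = 0.00349, adjusted p = 0.777; exact permutation p = 0.0159, n = 5 and 5), and it was -0.79 with the controls of the arrays numbered 4 exchanged and -0.98 without LOAD 2 and LOAD 4. In the treated tibiae it was -0.65 (standard error 0.23). Within the scan batches the control difference was -1.09, -0.82, -0.65 and -0.34.

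Lamp1 and Lamp2, the main glycoproteins of the lysosomal membrane, did not overlap between the groups. Lamp1 was at 10.11, 10.60, 10.69, 10.58 and 10.66 in LOAD and at 11.05, 11.31, 10.92, 10.87 and 11.33 in SHAM. Lamp2 was at 10.15, 9.73, 10.21, 9.68 and 10.01 in LOAD and at 10.27, 10.68, 10.51, 10.43 and 10.41 in SHAM, with a narrow gap between LOAD 3 and SHAM 1. The differences were -0.57 (standard error 0.17) for Lamp1 and -0.50 (standard error 0.16) for Lamp2, and neither passed the test (limma, adjusted p = 0.777 for both). With the controls of the arrays numbered 4 exchanged, Lamp1 stayed at -0.58 and Lamp2 moved to -0.25, and without LOAD 2 and LOAD 4 they were at -0.60 and -0.33. The lysosomal protease Ctsh differed by -0.55 (standard error 0.22) with overlapping groups, and by -0.20 with these controls exchanged.

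Of 8 leukocyte and marrow genes 3 were higher and 5 lower, with a median of -0.28. Cd53, a tetraspanin of leukocytes, was at 9.60, 9.41, 10.12, 9.84 and 9.36 in LOAD and at 9.79, 9.998, 10.18, 10.40 and 10.25 in SHAM, a difference of -0.46 (standard error 0.19), which was -0.20 with the controls of the arrays numbered 4 exchanged. The lysozyme gene Lyz2, of macrophages and granulocytes, differed by -0.53 (standard error 0.33) with its lowest value of 12.90 in LOAD 2. The chemokine receptor Ccr1 differed by -0.70, with signal in 2 of 5 LOAD and 5 of 5 SHAM controls. The mean level of the leukocyte list ranged from 8.31 to 8.95 in LOAD and from 8.77 to 8.92 in SHAM, with the lowest in LOAD 2. Without LOAD 2 and LOAD 4 its median was -0.055, so that most of the list's difference rests on these arrays. The 3 erythroid genes were lower (median -0.25), among them the anion exchanger of red cells, Slc4a1, at -0.75 (standard error 0.61) and Alas2, the first enzyme of heme synthesis in red cell precursors, at -0.15 (standard error 0.29). Neither had an unadjusted p under 0.05. The part of marrow, blood or muscle RNA in the differences of Vcam1, Lamp1, Lamp2 and Phex was not tested.

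Of the other lower genes, 4 had signal in all 10 controls. Itgb1, the shared chain of the integrins that bind matrix, differed by -0.55 (standard error 0.18), the epithelial membrane protein Emp1 by -0.80 (standard error 0.25), the nuclear import receptor Kpnb1 by -0.93 (standard error 0.31) and the Rab regulator Gdi2 by -0.57 (standard error 0.19). On exchange of the controls of the arrays numbered 4, Itgb1 was at -0.17, Emp1 at -0.64, Kpnb1 at -0.32 and Gdi2 at -0.34. Kpnb1 was at 9.83, 7.64, 9.90, 9.10 and 8.63 in LOAD and between 9.73 and 10.14 in SHAM, with LOAD 2 lowest. Its difference was -0.64 without LOAD 2 and -0.53 without LOAD 2 and LOAD 4. The leptin receptor Lepr, through which fat signals to brain and bone, was at 7.33, 5.97, 8.21, 7.55 and 7.22 in LOAD and at 8.34, 8.94, 8.53, 8.52 and 8.42 in SHAM. Its groups did not overlap, with a difference of -1.29 (standard error 0.32; limma, unadjusted p = 0.00183, adjusted p = 0.777). However, Lepr carried signal in 2 of 5 LOAD and 5 of 5 SHAM controls, so that its low values are near the limit of detection. In the single channel analysis Lepr had an adjusted p of 0.430.

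Among the genes that were higher in LOAD, 2 bind insulin-like growth factors. Igfbp6, which prefers IGF-II, was at 7.99, 7.81, 7.49, 8.05 and 7.90 in the LOAD controls and at 7.70, 7.38, 6.87, 7.56 and 7.07 in the SHAM controls, and Igfbp2 was at 9.76, 9.87, 9.58, 9.51 and 9.85 against 9.56, 9.52, 9.44, 9.21 and 8.90. In each gene 2 SHAM controls reached the LOAD range. The differences were 0.53 (standard error 0.19) for Igfbp6 and 0.39 (standard error 0.17) for Igfbp2, against 0.59 and 0.42 in the treated tibiae. Neither passed the test (limma, adjusted p = 0.777 for both), and without normalization Igfbp2 was at -0.027. Igfbp3, the main carrier in blood, lay the other way at -0.66 (standard error 0.38), with signal in 3 of 5 LOAD and 5 of 5 SHAM controls. Over the 8 genes of the IGF axis 5 were higher, with a median of 0.16, which without normalization was -0.13 against -0.36 for all genes, and without LOAD 4 was 0.058. Igfbp6 was at 0.34 and Igfbp2 at 0.25 with the controls of the arrays numbered 4 exchanged. Other named genes higher in LOAD were the glutamate receptor subunit Grin1 at 0.49 and the cation exchanger Slc24a1 at 0.52, both at 0.19 with these controls exchanged.

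Lists of nerve, stress, inflammatory and growth factor signalling were divided between higher and lower members. Of 23 genes of sympathetic and sensory signalling 14 were higher and 9 lower (median 0.067), of 15 of inflammation 6 and 9 (median -0.023), and of 9 of the glucocorticoid and stress response 4 and 5 (median -0.042). The 14 genes of the early response and of mechanosensing were divided 8 to 6 (median 0.052), and the 14 of TGF-beta and BMP signalling 6 to 8 (median -0.055). Among the few members with an unadjusted p under 0.05 were the sensory neuropeptide gene Calca, at 0.55 but with signal in 0 of 10 controls, the TGF-beta coreceptor Tgfbr3, at -0.81 with signal in 2 of 5 LOAD controls, and the Ras inhibitor Rasa1, at -0.71 with signal in 3 of 5. Sgk1, a kinase induced by glucocorticoids, differed by -0.41 (standard error 0.19). Of all lists together, 0 members passed a false discovery rate of 20% (limma).

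**Figure D3:**
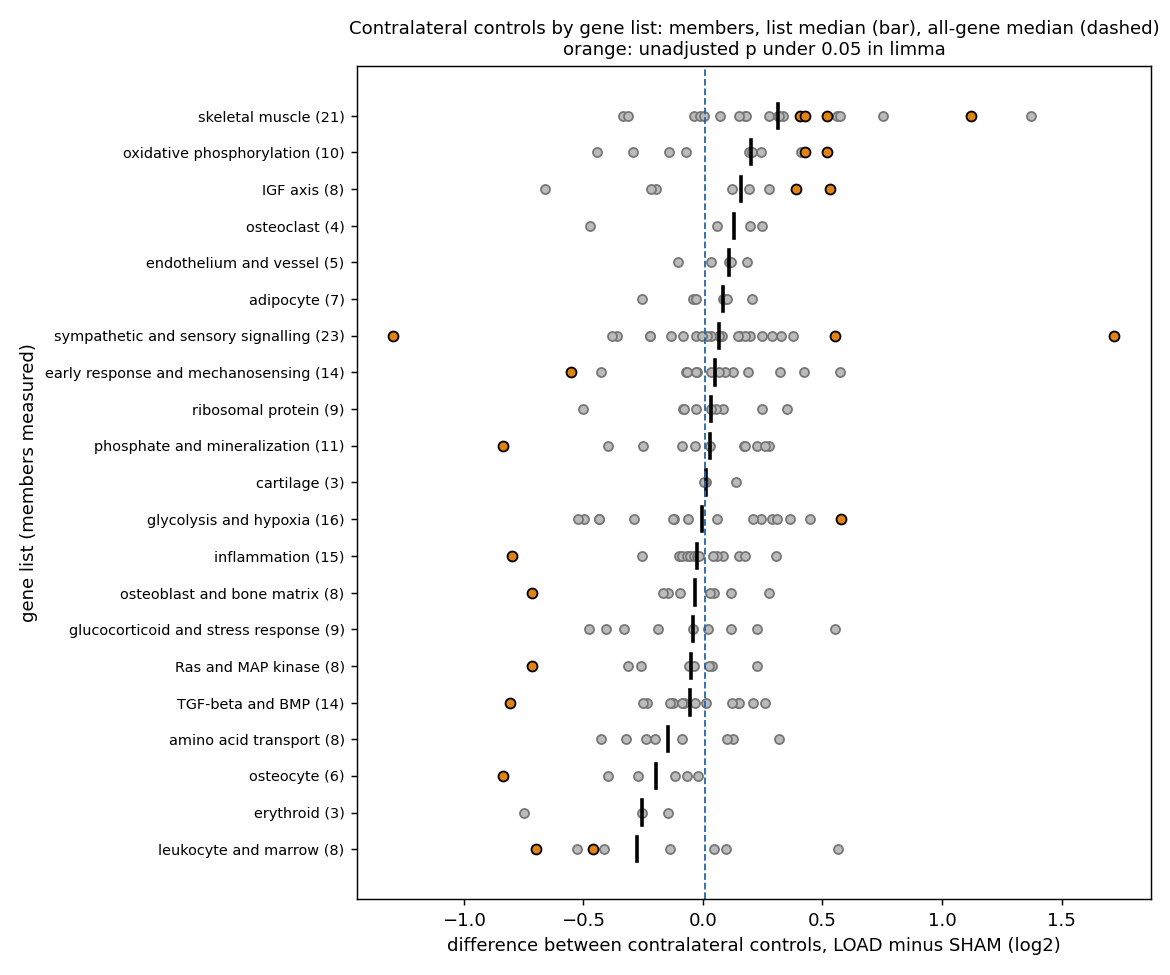
Difference between contralateral controls, LOAD minus SHAM, on the log2 scale (horizontal axis) for the members of 21 gene lists (vertical axis); points are genes, orange those with an unadjusted p under 0.05 in limma, bars list medians, and the dashed line the median of all genes, 0.010. Skeletal muscle lies highest, with a median of 0.31, and the leukocyte and marrow list lowest, with -0.28.

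Among accessions without a gene name the lowest p was that of U09793, at 7.63, 7.01, 8.09, 7.45 and 7.63 in the LOAD controls and at 8.51, 8.87, 8.65, 8.39 and 8.61 in the SHAM controls. The difference was -1.04 (standard error 0.20; limma, unadjusted p = 0.000208, adjusted p = 0.777), with signal in 3 of the LOAD controls. Z48444 differed by -1.04 (standard error 0.24). Higher in LOAD were D88250, at 10.66, 10.87, 10.28, 10.61 and 10.75 against 9.77, 10.21, 9.97, 10.23 and 9.82, a difference of 0.63 (standard error 0.14), and M36432 at 0.86, with signal in 2 of 10 controls. D88250 did not overlap between control groups, and in the treated tibiae its difference was 0.15 (standard error 0.23). After exchange of the controls of the arrays numbered 4, U09793 was at -0.71, Z48444 at -0.61, D88250 at 0.42 and M36432 at 0.54.

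The treated tibiae share array and spots with the controls and are set beside them without a test of likeness. In the treated tibiae no gene was past the 20% threshold (0 of 4472, 0%; limma, lowest adjusted p = 0.756), and 240 (5.37%) had an unadjusted p under 0.05, 1.63% of all higher and 3.73% lower in LOAD. Of the 12 higher and 12 lower named genes with the lowest p between controls among those with signal in all 10, Ckm, Fgb, Klc-C and Svs4 lay the other way in the treated tibiae, at -0.48, -0.22, -0.25 and -0.16. Outside these 24 other genes also did, among them Maoa, Mepe, troponin-C, Myl11, Capn3 and Tnni2. The test of the ratio itself, whether control and treated tibiae differed between the groups by unequal amounts, passed for 0 of 4472 genes (0%; limma, lowest adjusted p = 0.998), with 63 (1.41%) at an unadjusted p under 0.05, of which the lower ones were 0.894% of all genes.

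**Figure D4:**
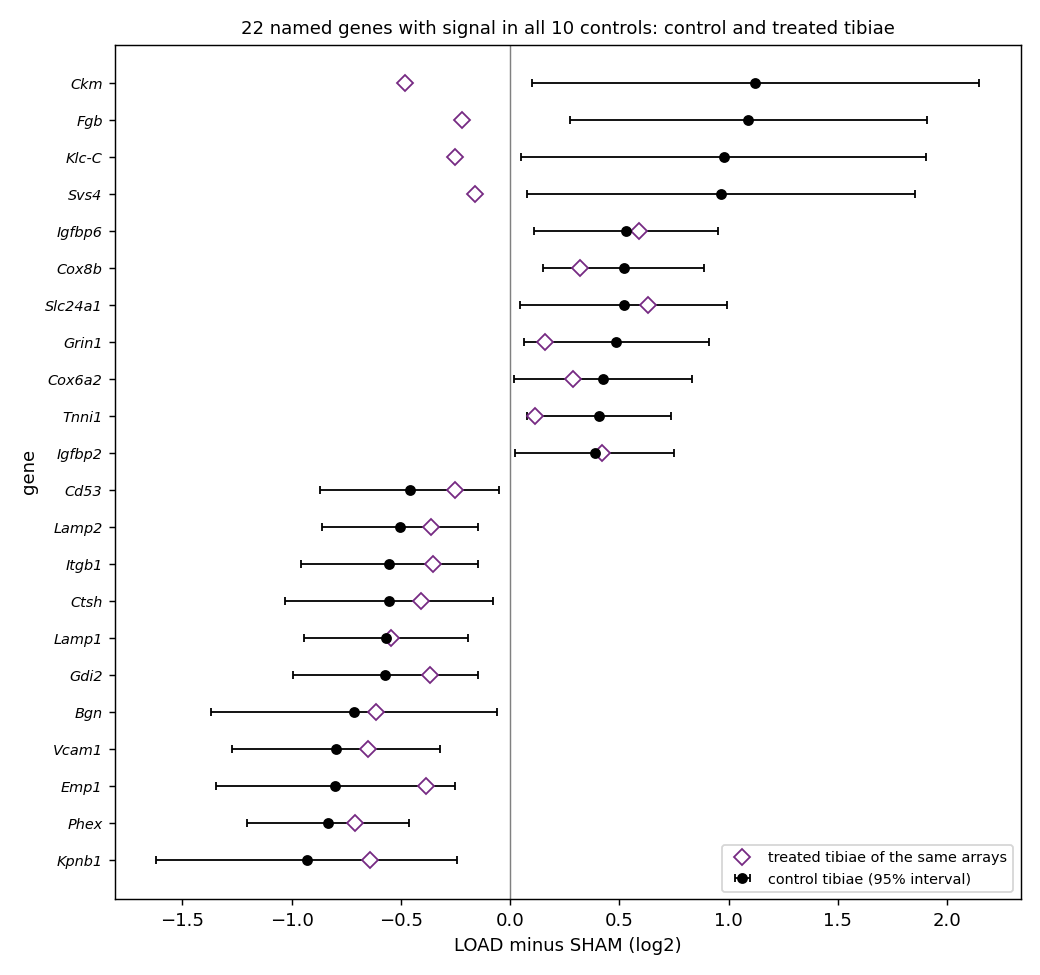
Difference LOAD minus SHAM on the log2 scale (horizontal axis) of 22 of these named genes (vertical axis) in control tibiae (filled circles with 95% interval) and in treated tibiae of the same arrays (open diamonds). Phex lies at -0.83 in control and -0.71 in treated tibiae, while Ckm, Fgb, Klc-C and Svs4 lie above 0 in control and below 0 in treated tibiae.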

How the data were processed

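Each array was a custom spotted oligonucleotide array scanned in Cy3 and Cy5. The deposited scanner output, made by the authors with BlueFuse (version 2.0 in the file headers, 3.0 in the study's methods), gives for 4803 accessions the linear intensity of each channel, with duplicate spots combined, and as fractions a confidence and a probability of signal per spot. A deposited matrix of the authors' log2 ratios (10 columns) was not used.

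From these, 4472 accessions with a confidence of at least 0.11 on all 10 arrays were kept. Names came from RefSeq for 1177 of the 4803 accessions and from the study for 7. The channels were normalized within arrays by loess (span 0.3, 4 iterations) and between arrays by quantiles of the mean of both channels (Aquantile), in limma 3.58.1 under R 4.3.3. The log2 intensities of the 10 control channels, in which "signal" means a probability of at least 0.5, were fitted in limma with group and dye, adjusted by Benjamini-Hochberg and called at 20%. The individual channel model over 20 channels, fits of the treated channels and of the ratios, and exact permutation tests were run beside it. P-values measure the spread between separate rats, and precision is limited by how few arrays there are. Levels of different probes are not comparable.

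Named genes are those the study named, of which Slc38a2 was not matched here; up to 12 higher and 12 lower named genes by p with signal in all 10 controls; up to 4 by p of each of 22 lists; marker genes; and 2 unnamed accessions per direction. The members and lists were chosen with earlier results of these data known. The fitting was tested on simulated data. Alternatives comprised 29 planned settings and 3 chosen after seeing the data. Some genes that fall under this rule are not reported here.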

Additional observations from a re-analysis of the deposited data

Results flagged for a closer look

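Among 30 genes with 5 values in each group, 6 of 60 groups held a value far from its 4 neighbours by Dixon's test, where chance gives about 1 in 20. The control of SHAM 1 was highest and apart in SHAM for Klc-C (8.42) and Cox6a2 (9.90). The control of SHAM 5 was lowest and apart in SHAM for Emp1 (8.66) and Slc24a1 (7.003). In LOAD, the control of LOAD 1 was lowest for Lamp1 (10.11) and that of LOAD 2 for Ctsh (9.74).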

How the results depend on the processing

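Under 29 planned settings and 3 chosen after seeing the data (leaving out LOAD 2 and LOAD 4, leaving out LOAD 2 and both arrays numbered 4, array weights), 0 genes passed a false discovery rate of 20% except without normalization (28). The count at an unadjusted p under 0.05, 247, was 409 with median centring, 160 over genes with signal in all 10 controls, 133 without both arrays numbered 4, 90 with their controls exchanged and 158 to 383 without 1 array. The count without overlap, 44, was 93, 26, 137 and 23 under the first 4 of these, 0 without normalization, 58 to 155 without 1 array, 187 without LOAD 2 and LOAD 4 and 284 without LOAD 2 and both arrays numbered 4; fewer samples overlap less often. For the ratio, 63 was 39 with median centring, 42 (without SHAM 2) to 169 (without LOAD 5) without 1 array, and 95 without LOAD 2 and LOAD 4.

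The replicate block gave 246 genes at an unadjusted p under 0.05 and 0 past 20%. Same-numbered arrays shared a scan batch, but their controls did not deviate together (correlations -0.41 to 0.19, own number best for 2 of 10). Blocking on the scan batch instead gave 222 such genes.

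V2R2B, at 0.0041, was at -0.026 and -0.025 with quantiles of 10 and 20 channels, -0.033 without loess, -0.38 without normalization, -0.0048 with 1 missing value allowed, -0.0027 without both arrays numbered 4, -0.15 to 0.14 without 1 array, -0.091 and -0.12 in the settings without LOAD 2, and -0.053 with array weights. QFG-TN1, at -0.073, was at 0.039 with SHAM 1 as LOAD and -0.23 to 0.16 without 1 array. Without normalization Tnni1 was at -0.023 and Igfbp2 at -0.027. The cause was not tested.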
